A study of Mus musculus with 6 samples.

Results

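Matrix metalloproteinases (MMPs) are zinc-dependent enzymes that cut proteins of the extracellular matrix and of the cell surface. The tissue inhibitors of metalloproteinases (TIMPs) bind their active sites and block them. The 10 genes described here are the MMP genes Mmp2, Mmp7, Mmp9, Mmp11, Mmp14 and Mmp15 and the TIMP genes Timp1, Timp2, Timp3 and Timp4. They were chosen by name, with earlier results of these data known, as were the gene lists used below. Each of the 10 genes matched 1 of the 23669 gene rows of the deposited table. The series measured RNA of mouse kidneys at postnatal day 3 in 2 genotypes. The first genotype is R26NICD2/+Kspcre, called NICD2 here (3 libraries). It carries the Notch2 intracellular domain, the active fragment of the receptor, at the Rosa26 locus, and Kspcre is a Cre recombinase driven by the promoter of Ksp-cadherin (Cdh16), a gene of kidney tubule epithelium. The other genotype is wild type (3 libraries), for which the labels name no allele. The title of the series gives its subject as active Notch2 signalling and growth of kidney cysts.

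Most MMPs are made as inactive precursors whose prodomain must be removed. Mmp2 and Mmp9 encode the gelatinases, which digest denatured collagen and the type IV collagen of basement membranes. Mmp14 and Mmp15 encode membrane-anchored enzymes, and the Mmp14 product activates the Mmp2 precursor in a complex that also holds the Timp2 product. Mmp11 encodes stromelysin 3, which is activated inside the cell by furin-like convertases, and Mmp7 encodes matrilysin, a small enzyme of epithelial cells. In the developing kidney, MMPs and TIMPs act on the matrix around the branching ureteric tree and the growing tubules.

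Levels are FPKM (fragments scaled to the length of the transcript and to the mapped fragments of the library), as the authors deposited them, so that levels of different genes can be set side by side. Each library held an estimated 16200000 to 17200000 fragments. The row for human Notch2, taken as the transgene (no label names the species of the insert), held 75.4, 79.6 and 60.2 FPKM in the NICD2 libraries and 0, 0.03 and 0.03 FPKM in the wild type libraries. The 4 Y-linked genes checked (Uty, Kdm5d, Ddx3y and Eif2s3y) were listed at 0 in NICD2 replicate 3 and were expressed in each of the other 5 libraries. Of 10 markers of kidney tubule and podocytes, 9 were high enough to be tested, of which 1 rose and 5 fell in NICD2. Among all genes tested, 4.93% rose and 3.86% fell. No label says whether each sample was a different animal, and p-values here cover only the spread among the samples, some of which may be technical. In whole kidneys, fewer cells of a type and less RNA per cell cannot be told apart.

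Timp4 was the 1 member that passed the test, at about 9 times the wild type level but still among the lowest of the family. The abundant members Timp3, Timp2, Mmp2 and Mmp14 lay between 63.27 and 120.39 FPKM in every library of either genotype, and none of them was called. Mmp7 was detected in the 3 NICD2 libraries and listed at 0 in the 3 wild type libraries. NICD2 was compared with wild type by limma on log2(FPKM + 1), across all 13765 genes that reached 1 FPKM in 3 or more libraries. A gene was called at a Benjamini-Hochberg adjusted p under 0.05 (two-sided). Of the 10 members 8 passed this filter on low values, and Mmp7 and Mmp9 did not. Timp4 passed it through its NICD2 values alone, so that among the genes tested it had to differ. Of the 8 tested, 1 rose and 0 fell, where 8.79% of all genes tested were called (4.93% rose and 3.86% fell). Without adjustment, p was under 0.05 for 2 of the 8 (Timp4 and Mmp15), against 25.1% of all genes tested. The median log2 fold change of the 8 tested members was -0.06, and that of all genes tested was -0.006. The groups did not overlap for 4 of the 8 (Timp4, Mmp15, Mmp2 and Timp2), where the same held for 30.5% of all genes tested (15% with NICD2 above and 15.5% with NICD2 below). Of the 4 members, Timp4 and Mmp15 were above and Mmp2 and Timp2 below. The plot of each member by library shows these values.

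**Figure D1:**
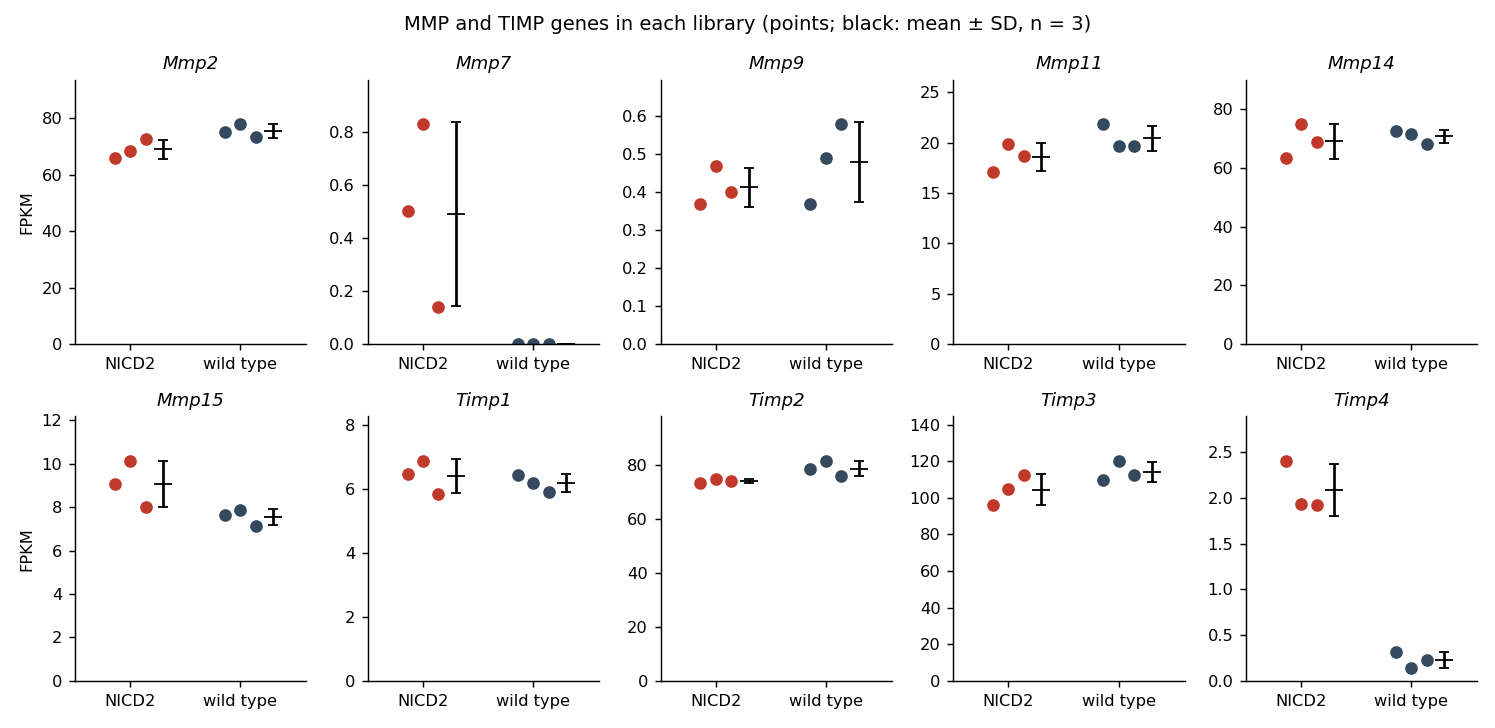
FPKM of the 10 MMP and TIMP genes (vertical axis, each panel from 0) in the 3 NICD2 libraries (red, left) and the 3 wild type libraries (dark blue, right), with mean ± SD in black. Timp4 lies at 1.92 to 2.41 FPKM in NICD2 and 0.14 to 0.32 FPKM in wild type, Mmp7 is above 0 in NICD2 libraries only, and Timp3, Timp2, Mmp2 and Mmp14 lie between 63.27 and 120.39 FPKM in both groups.

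Mmp7 (gene 17393, chromosome 9, 7692090 to 7699585 on GRCm38, plus strand) encodes matrilysin, which in kidney is known as a product of injured tubule epithelium and a target of Wnt signalling. It held 0.5, 0.83 and 0.14 FPKM in NICD2 replicates 1, 2 and 3, and 0 FPKM in each wild type library. All NICD2 libraries were above all wild type libraries, and the NICD2 libraries differed from each other by more than any other member's did relative to its mean. At the estimated depth these levels correspond to about 8, 13 and 2 fragments in NICD2 and 0 in wild type. A count of 0 in wild type allows up to 0.186 to 0.196 FPKM (3 fragments, counting error only), and NICD2 replicate 3 lay under that limit. Mmp7 did not reach the filter on low values. When all genes with any FPKM were tested, limma gave it an adjusted p of 0.112. No fold is given, since its wild type libraries are listed at 0, and the groups' means of log2(FPKM + 1) differed by 0.55. The authors' deposited table, from their DEGseq comparison, gave it q = 1.78e-06. By the authors' deposited table, q was under 0.05 for 7 of the 10 members and for 48.9% of all genes with a q.

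The bases before the start of Mmp7 are shown because it is the member detected at this depth in 1 genotype alone. The window is the 250 bases upstream of the annotated start in RefSeq (GRCm38.p6), chr9:7691840-7692089, plus strand, 5′ to 3′, and the capitals mark the match to a searched motif.
Mmp7 upstream: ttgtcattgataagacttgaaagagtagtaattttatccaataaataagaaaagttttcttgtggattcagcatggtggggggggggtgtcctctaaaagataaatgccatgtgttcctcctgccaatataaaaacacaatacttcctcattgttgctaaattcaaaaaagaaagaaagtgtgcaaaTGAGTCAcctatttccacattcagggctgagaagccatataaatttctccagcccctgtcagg
It holds TGAGTCA, the AP-1 motif (searched in this form and as TGACTCA), 63 bases before the start. AP-1 letters occur in 4.46% of 32851 such windows. The RBPJ letters GTGGGAA, those of the DNA-binding partner of the Notch intracellular domain, do not occur in this window on either strand and occur in 5.42% of all windows. RefSeq gives a further start inside the gene, and the window before that start holds GTGGGAA 114 bases and CACGTG 50 bases upstream of it. CACGTG, a motif of HEY and HES proteins, occurs in 6.02% of all windows.

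Among the gelatinases, Mmp2 (gene 17390, chromosome 8, 92827291 to 92853486) was at 65.98, 68.58 and 72.7 FPKM in NICD2, against 75.1, 78.09 and 73.44 FPKM in wild type. Every NICD2 library was below every wild type library, by a narrow margin. Its log2 fold change was -0.13 ± 0.06 (SE; 95% interval -0.27 to 0.01), with limma adjusted p = 0.242. Mmp9 (gene 17395, chromosome 2, 164940744 to 164955850), which is best known from neutrophils, macrophages and osteoclasts, was at 0.37, 0.47 and 0.4 FPKM in NICD2 and 0.37, 0.49 and 0.58 FPKM in wild type. The groups overlapped, and Mmp9 was too low for the filter in every library (limma without the filter, adjusted p = 0.656).

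Neutrophil markers differed in level, and 7 were too low to be tested. S100a9 was at 7 to 12.72 FPKM in NICD2 and 10 to 20.03 FPKM in wild type. S100a8 was at 3.74 to 8.9 FPKM in NICD2 and 6.99 to 9.79 FPKM in wild type. Of 11 markers 4 were tested and 0 called by limma, where 8.79% of all genes tested were called. The unadjusted p was under 0.05 for 1 of the 4, against 25.1% of all genes tested. The summed level of the 11 was 14.18 to 27.38 FPKM in NICD2 and 25.01 to 36.1 FPKM in wild type. Of the 4 tested, 1 had a fold change above 0 and 3 below. Ly6g, too low to be tested, was listed at 0 in each NICD2 library and at 0.08 to 0.37 FPKM in wild type. The summed level of 11 macrophage markers was 126.5 to 180.8 FPKM in NICD2 and 97.76 to 138.1 FPKM in wild type. Of the 10 macrophage markers tested, 9 had a fold change above 0, 3 had an unadjusted p under 0.05, and the median log2 fold change was 0.32. The 1 that rose was Cd14, at 3.64 ± 1.25 FPKM in NICD2 and 1.38 ± 0.55 FPKM in wild type (SD, n = 3 each; limma adjusted p = 0.0374). Its call did not hold in 4 of the 6 leave-one-out fits, those without NICD2 replicate 1 or 2 or wild type replicate 2 or 3, with adjusted p up to 0.0976, nor with no filter on low values or with robust variance. Osteoclast markers summed to 9.65 to 11.44 FPKM in NICD2 and 9.24 to 11.07 FPKM in wild type, and limma called 0 of the 2 tested (0 at an unadjusted p under 0.05). Those 2, Ctsk and Acp5, held most of the sum, and the 4 not tested were at 0.44 FPKM or less.

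Mmp11 (gene 17385, chromosome 10, 75923221 to 75932502), a stromal enzyme, was at 17.13, 19.85 and 18.66 FPKM in NICD2 and 21.86, 19.66 and 19.7 FPKM in wild type. The groups overlapped through NICD2 replicate 2. Its log2 fold change was -0.13 ± 0.08 (95% interval -0.31 to 0.04; limma adjusted p = 0.326).

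Of the membrane-anchored enzymes, Mmp14 (gene 17387, chromosome 14, 54431598 to 54442456) was at 63.27, 75 and 68.88 FPKM in NICD2 and 72.54, 71.58 and 68.23 FPKM in wild type. The lowest and the highest of the 6 values were both in NICD2, and the wild type values lay between them. The log2 fold change was -0.04 ± 0.07, with a 95% interval of -0.21 to 0.13 (limma adjusted p = 0.792). Without NICD2 replicate 1 it was 0.02. Mmp15 (gene 17388, chromosome 8, 95352296 to 95374293) was at 9.06, 10.15 and 8.02 FPKM in NICD2, against 7.65, 7.85 and 7.13 FPKM in wild type. Every NICD2 library was above every wild type library. Mmp15 had the largest fold change among the 7 tested members that were not called, 0.23 ± 0.09 (95% interval 0.03 to 0.44), with unadjusted p = 0.0315 and limma adjusted p = 0.152. Its adjusted p ran from 0.0883 to 0.357 over the other settings.

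Timp4 (gene 110595, chromosome 6, 115245616 to 115252303 on GRCm38, minus strand) encodes the TIMP best known from heart, brain and fat. It was at 2.41, 1.93 and 1.92 FPKM in NICD2, against 0.32, 0.14 and 0.23 FPKM in wild type. The lowest NICD2 value was far above the highest wild type value, and the 3 libraries of each group lay close together in absolute terms. The mean was 2.09 ± 0.28 FPKM in NICD2 and 0.23 ± 0.09 FPKM in wild type (SD, n = 3 each), a ratio of 9.07. The log2 fold change of FPKM + 1 was 1.33 ± 0.12 (SE; 95% interval 1.04 to 1.61; limma adjusted p = 3.95e-04), a scale that understates the change of so low a gene. With a pseudocount of 0.1 the log2 fold change was 2.76 (adjusted p = 0.00104). Timp4 passed the filter through its NICD2 values alone, so that among the genes tested it had to differ. It was also called when all genes with any FPKM were tested (adjusted p = 9.01e-04) and without each library in turn (adjusted p 0.00144 to 0.00328). The wild type levels correspond to about 8, 4 and 6 fragments and the NICD2 levels to about 63, 49 and 50.

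The Timp4 start is shown because Timp4 is the member that rose. The window is chr6:115252206-115252455 (GRCm38.p6, RefSeq), minus strand, 5′ to 3′, and has no capitals because none of the motifs searched occurs in it. It lies before the RefSeq start at 115252205. The span of Timp4 given above runs to 115252303 and so reaches into this window.
Timp4 upstream: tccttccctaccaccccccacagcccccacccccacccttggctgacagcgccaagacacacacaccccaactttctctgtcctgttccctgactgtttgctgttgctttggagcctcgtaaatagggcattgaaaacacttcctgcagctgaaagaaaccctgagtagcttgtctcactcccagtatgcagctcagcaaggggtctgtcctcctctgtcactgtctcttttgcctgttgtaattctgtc
The motifs searched, on both strands, were the RBPJ letters GTGGGAA, the AP-1 pair given for Mmp7, the E-box letters CACGTG and a further motif of HEY and HES proteins, CACGCG. This last one occurs in 7.62% of the 32851 windows. RefSeq windows were found for 8 of the 10 members, all but Mmp2 and Mmp9. Among them the other match was CGCGTG, the opposite strand of that last motif, 70 bases before the start of Timp3.

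Timp4 lies inside Syn2, a synaptic vesicle gene on the opposite strand (chromosome 6, 115134902 to 115282626). Syn2 was at 0.55, 1.41 and 1.74 FPKM in NICD2 and 2.83, 3.75 and 1.91 FPKM in wild type. Its NICD2 values were all below its wild type values, the opposite order to Timp4, with a log2 fold change of -0.79 ± 0.24 (limma adjusted p = 0.0796). In GENCODE M21 (GRCm38), 90 of the 5894 exonic bases of Timp4 are also exonic in Syn2. The longest Timp4 transcript of the deposited row has 1652 bases, so the exons behind its FPKM can differ from these. The sources used here do not say whether counting was by strand, and without it reads from those bases cannot be told apart. The 3 tested genes outside the family most like Timp4, by Pearson correlation of log2(FPKM + 1) over the 6 libraries, were Nectin4 (r = 0.9997), Ces1d (r = 0.9984) and Col26a1 (r = 0.9978). These values describe points that fall into 2 groups. Nectin4, a cell adhesion gene of epithelia, was at 11.08, 8.7 and 8.54 FPKM in NICD2 and 2.26, 1.81 and 2.01 FPKM in wild type. Col26a1, a collagen gene, was at 147.18, 124.87 and 126.49 FPKM in NICD2 and 35.71, 32.8 and 33.68 FPKM in wild type. As for Timp4, the highest value of both was in NICD2 replicate 1. Ces1d, a carboxylesterase with close gene copies that could share its reads, averaged 19 FPKM in NICD2 and 0.76 FPKM in wild type.

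**Figure D2:**
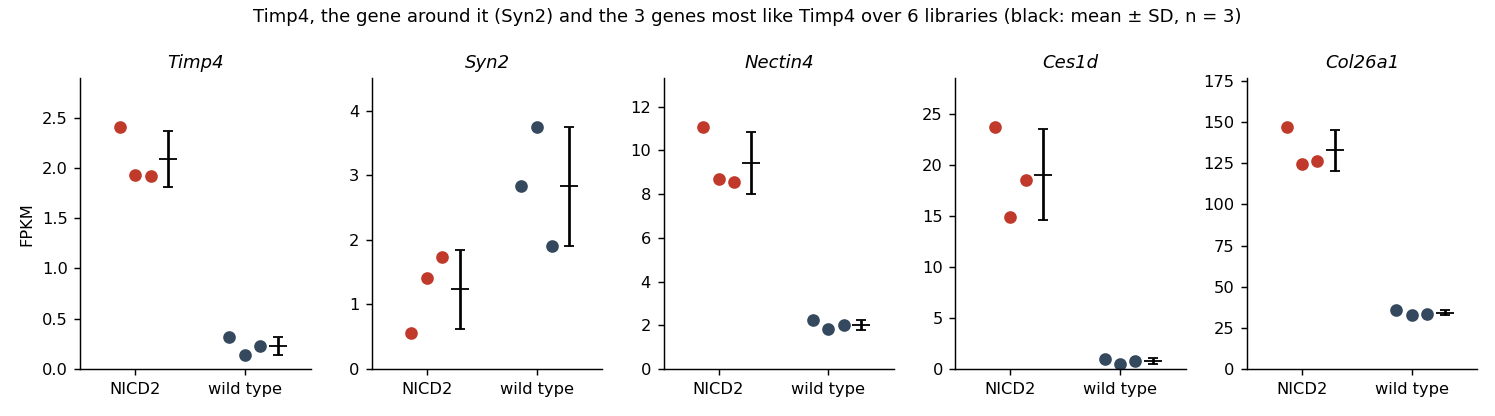
FPKM (vertical axes, each from 0) of Timp4, of Syn2, the gene that surrounds it on the opposite strand, and of the 3 genes most like Timp4 in the 3 NICD2 libraries (red, left) and 3 wild type libraries (dark blue, right), with mean ± SD in black. Syn2 has the opposite order to Timp4, at 0.55 to 1.74 FPKM in NICD2 and 1.91 to 3.75 FPKM in wild type.

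Some markers of other cell types moved in the same direction as Timp4, and others in the opposite direction. Fold changes were below 0 for 10 of 10 endothelial, 13 of 14 stromal and 8 of 9 tubule and podocyte markers tested. Of 8 smooth muscle and pericyte markers 3 rose (Tagln, Cnn1 and Notch3) and 0 fell. Among all genes tested, 4.93% rose and 3.86% fell. Their summed level was 634.9 to 899.9 FPKM in NICD2 and 502.9 to 606 FPKM in wild type, and none of the 8 was at 0. The count that rose was 1, Notch3, without NICD2 replicate 1 or 2 or wild type replicate 2 or 3. Notch3, a Notch receptor of mural cells, was at 26.6 ± 1.74 FPKM in NICD2 and 15.6 ± 1.02 FPKM in wild type (limma adjusted p = 6.42e-04). Of 9 tested markers of tubule injury 5 rose (Lcn2, Krt18, Krt19, Spp1 and Cd44) and 0 fell. Spp1 and Cd44 are counted again below, among the matrix substrates and the activators. The other 4 were not called, and 3 of the 9 had a fold change below 0. The 10 listed summed to 1007 to 1401 FPKM in NICD2 and 537.5 to 571.7 FPKM in wild type. Spp1 alone held 596.62 to 932.44 FPKM in NICD2 and 297.79 to 324.24 FPKM in wild type. Lcn2, the injury marker lipocalin 2, was at 23.6 ± 10.2 FPKM in NICD2 and 6.01 ± 0.706 FPKM in wild type (limma adjusted p = 0.0066), and was not called with robust variance (adjusted p = 0.0613). Lcn2 was highest in NICD2 replicate 1, as Timp4 was, while Mmp7 and the summed level of the smooth muscle markers were highest in NICD2 replicate 2. The macrophage markers, given beside Mmp9, had their highest summed level in NICD2 replicate 1. The part of these cell types in the rise of Timp4 or in the level of Mmp7 was not tested.

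Timp1 (gene 21857, X chromosome, 20870166 to 20874737) encodes the inhibitor that binds the Mmp9 precursor and is often raised in injured tissue. It was at 6.49, 6.9 and 5.84 FPKM in NICD2 and 6.46, 6.2 and 5.92 FPKM in wild type. The groups overlapped, and the highest and the lowest of the 6 values were both in NICD2. The log2 fold change was 0.04 ± 0.08 (95% interval -0.14 to 0.23; limma adjusted p = 0.801). It was -0.01 without NICD2 replicate 2 and 0.1 without NICD2 replicate 3, the library without Y-linked transcripts, whose Timp1 level was the lowest of all.

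Timp2 (gene 21858, chromosome 11, 118301061 to 118355411) encodes the inhibitor that also takes part in activating the Mmp2 precursor. It was at 73.38, 75.13 and 74.09 FPKM in NICD2, against 78.73, 81.83 and 76.02 FPKM in wild type. All NICD2 values were below all wild type values, as for Mmp2. A further gene row, BC100451, lies inside Timp2 on the same strand and was at 0.14 to 0.36 FPKM in NICD2 and 0.25 to 0.45 FPKM in wild type. The log2 fold change of Timp2 was -0.09 ± 0.06 (95% interval -0.22 to 0.04; limma adjusted p = 0.393). Timp3 (gene 21859, chromosome 10, 86300412 to 86349505) encodes the inhibitor that stays bound to the matrix and also blocks ADAM and ADAMTS enzymes. It was the most abundant member, at 96.02, 104.96 and 112.64 FPKM in NICD2 and 109.78, 120.39 and 112.23 FPKM in wild type. The groups overlapped through NICD2 replicate 3. Its log2 fold change was -0.13 ± 0.07 (95% interval -0.3 to 0.04; limma adjusted p = 0.333). The 95% intervals of these members leave room for changes of the sizes given, so the tests do not show that their levels were equal.

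Timp1 and Timp3, like Timp4, lie inside synapsin genes on the opposite strand. Syn1 around Timp1 was at 0.32 to 0.84 FPKM in NICD2 and 0.4 to 1.24 FPKM in wild type, and its annotated exons share 0 bases with those of Timp1. Syn3 around Timp3 was at 2.64 to 3.33 FPKM in NICD2 and 3.08 to 3.98 FPKM in wild type. In GENCODE M21, 1733 of the 8144 exonic bases of Timp3 are also exonic in Syn3, while the deposited row's longest Timp3 transcript has 4681 bases. In every library Syn1 was below Timp1 and Syn3 was below Timp3, but in every wild type library Syn2 was above Timp4.

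**Figure D3:**
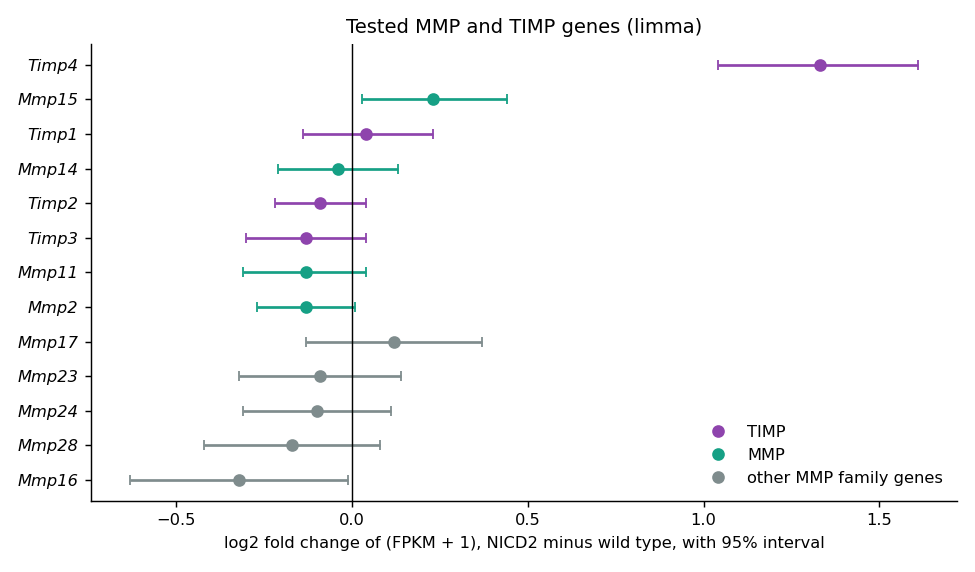
Log2 fold change of FPKM + 1, NICD2 minus wild type (horizontal axis), with its 95% interval from limma, for the 8 tested members (TIMP genes purple, MMP genes green) and the 5 other tested MMP family genes (grey). Timp4 stands at 1.33 (1.04 to 1.61), while the other 12 genes lie between -0.32 and 0.23.

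NICD2 replicate 1 was the lowest of the 6 libraries for 5 of the 8 tested members, Mmp2, Mmp11, Mmp14, Timp2 and Timp3, and the highest for Timp4. Wild type replicate 2 was the highest for Mmp2, Timp2 and Timp3. Mmp11 was highest in wild type replicate 1 and Mmp14 in NICD2 replicate 2. Interstitial fibroblasts and stroma are the cells in which Mmp2, Mmp11 and Mmp14 are well known. The 14 stromal markers summed to 1155, 1370 and 1343 FPKM in NICD2 and 1466, 1494 and 1296 FPKM in wild type, with NICD2 replicate 1 lowest and wild type replicate 2 highest. Of these 14, 0 rose and 2 fell (Foxd1 and Meis2), where 4.93% of all genes tested rose and 3.86% fell. The median log2 fold change of the 14 was -0.21, and none was at 0. Foxd1 and Meis2 were each lowest in NICD2 replicate 3. The count that fell was 0 without NICD2 replicate 1 or wild type replicate 2, 1 without NICD2 replicate 2 or wild type replicate 1 or 3, and 3 without NICD2 replicate 3. Of 10 endothelial markers 0 rose and 4 fell, and they summed to 396.1 to 418.9 FPKM in NICD2 and 460.5 to 525 FPKM in wild type. That count was 1 or 2 in each fit that left out 1 library. Without NICD2 replicate 1 the log2 fold changes of Mmp2, Mmp11, Timp2 and Timp3 were -0.1, -0.08, -0.08 and -0.07. The part of stromal or endothelial cells in these levels was not tested.

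In order of the mean over the 6 libraries, the levels were Timp3 (109 FPKM), Timp2 (76.5), Mmp2 (72.3), Mmp14 (69.9), Mmp11 (19.5), Mmp15 (8.31), Timp1 (6.3), Timp4 (1.16), Mmp9 (0.447) and Mmp7 (0.245). The ranges of Timp2 and Mmp2 overlapped, as did those of Mmp2 and Mmp14, although Timp2 was above Mmp2 in each of the 6 libraries. The ranges also overlapped for Timp4 and Mmp9, since Timp4 was above Mmp9 in the 3 NICD2 libraries and below it in the 3 wild type libraries. Every other neighbour in the order was separated in all libraries, except Mmp9 and Mmp7, of which Mmp7 was the higher in NICD2 replicates 1 and 2.

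The MMP members summed to 156.3, 174.9 and 168.8 FPKM in NICD2 and 177.5, 177.7 and 169.1 FPKM in wild type. The TIMP members summed to 178.3, 188.9 and 194.5 FPKM in NICD2 and 195.3, 208.6 and 194.4 FPKM in wild type. The groups overlapped for both sums, and the TIMP sum was above the MMP sum in every library. Mmp2 and Mmp14 made up 82.1% to 83.9% of the MMP sum in NICD2 and 83.2% to 84.2% in wild type. Timp2 and Timp3 made up 95% to 96% of the TIMP sum in NICD2 and 96.5% to 97% in wild type. Timp4 made up 0.987% to 1.35% of the TIMP sum in NICD2 and 0.0671% to 0.164% in wild type. The ratio of TIMP to MMP transcripts was 1.12 ± 0.038 in NICD2 and 1.14 ± 0.036 in wild type (SD, n = 3 each), given without a test.

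**Figure D4:**
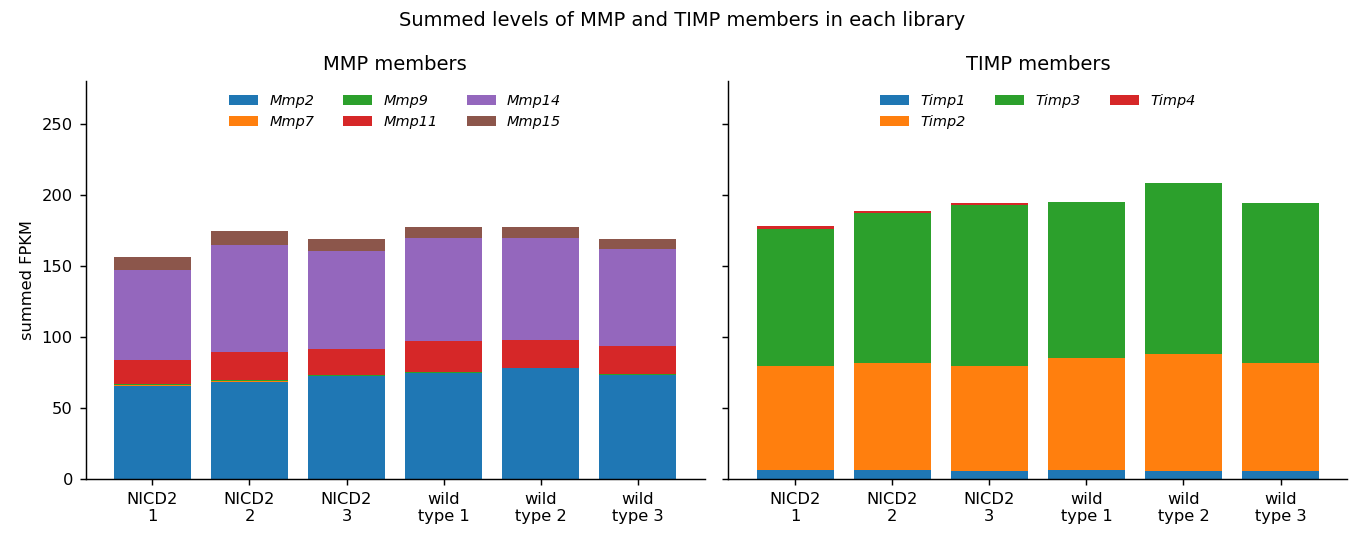
Summed FPKM (vertical axis, from 0) of the 6 MMP members (left) and the 4 TIMP members (right) in each NICD2 and wild type library, stacked by gene. Mmp2 and Mmp14, and Timp2 and Timp3, make up most of each bar, and the rise of Timp4 is a thin layer on the TIMP bars of NICD2.

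Apart from Mmp23, the rest of the MMP family was low. Of 17 further MMP genes listed, 5 were tested and 0 called by limma, where 8.79% of all genes tested were called. The unadjusted p was under 0.05 for 1 of the 5, against 25.1% of all genes tested. The median log2 fold change of the 5 was -0.1. Mmp23 was the highest, at 14.1 ± 0.56 FPKM in NICD2 and 15.1 ± 2.33 FPKM in wild type (SD, n = 3 each; limma adjusted p = 0.636). Mmp16, a membrane-anchored enzyme, was at 0.63, 1.1 and 1.12 FPKM in NICD2 and 1.25, 1.46 and 1.55 FPKM in wild type (limma adjusted p = 0.19). Its groups did not overlap. Mmp28 was at 2.18 FPKM in NICD2 and 2.57 FPKM in wild type (limma adjusted p = 0.393). Of the 12 not tested, 4 (Mmp1a, Mmp1b, Mmp21 and Mmp27) had no FPKM in any library.

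The list of inhibitors outside the TIMP family is broad and includes membrane, cystatin and thrombospondin genes, not all of which act on MMPs. Of 9 tested, 2 rose and 0 fell, where 4.93% of all genes tested rose and 3.86% fell. The median log2 fold change of the 9 was 0.23. Cst3, which encodes cystatin C, an inhibitor of cysteine proteinases, was at 362.09, 322.16 and 302.37 FPKM in NICD2, against 223.79, 191.13 and 180.87 FPKM in wild type. The groups were well apart (a log2 change of 0.73 ± 0.1, limma adjusted p = 0.00299). Thbs2, a matrix protein that binds Mmp2 and aids its uptake, was at 47.63, 47.86 and 48.59 FPKM in NICD2 and 33.83, 35.98 and 32.24 FPKM in wild type (log2 fold change 0.49 ± 0.06, limma adjusted p = 0.00195). The related Thbs1 was at 29.6 ± 3.12 FPKM in NICD2 and 24.3 ± 0.958 FPKM in wild type (limma adjusted p = 0.0868). The count that rose was 3 without NICD2 replicate 1, where Thbs1 was called, and 3 without wild type replicate 1, where Pebp1 was called. Reck, a membrane-bound inhibitor of Mmp2, Mmp9 and Mmp14, was at 13.1 to 16.2 FPKM in NICD2 and 14.9 to 16 FPKM in wild type (limma adjusted p = 0.75).

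Of 19 tested activators and inducers of MMPs, 2 rose and 1 fell, where 4.93% of all genes tested rose and 3.86% fell. The median log2 fold change of the 19 was -0.06. Sulf1, a heparan sulfatase, was at 4.43 ± 0.586 FPKM in NICD2 and 7.17 ± 0.271 FPKM in wild type (limma adjusted p = 0.00634). Cd44, a hyaluronan receptor that anchors MMPs at the cell surface, was at 5.21 ± 1.16 FPKM in NICD2 and 2.79 ± 0.539 FPKM in wild type (limma adjusted p = 0.0268). St14, which encodes the membrane serine proteinase matriptase, was at 34.8 ± 2.48 FPKM in NICD2 and 28 ± 0.834 FPKM in wild type (limma adjusted p = 0.0294). The count that rose was 0 without NICD2 replicate 1 or 2 or wild type replicate 2 or 3, and 1 without wild type replicate 1. The convertase gene Furin was at 32.6 to 36.8 FPKM in NICD2 and 33.9 to 38.7 FPKM in wild type, with overlapping groups (limma adjusted p = 0.706). Plau and Plat, the plasminogen activators, were not called either (limma adjusted p = 0.496 and 0.779).

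Of 8 tested inhibitors on the plasminogen side, 1 rose and 2 fell, where 4.93% of all genes tested rose and 3.86% fell. The median log2 fold change of the 8 was 0.01. Spint1, an inhibitor of matriptase, was at 38.3 ± 4.45 FPKM in NICD2 and 27.7 ± 0.666 FPKM in wild type (limma adjusted p = 0.0132), and was not called without wild type replicate 2 (adjusted p = 0.0613), which made the count that rose 0. Cpb2, a carboxypeptidase that protects fibrin, was at 9.36 ± 0.544 FPKM in NICD2 and 12.6 ± 0.0643 FPKM in wild type (limma adjusted p = 0.00898). Serpinf2, the plasmin inhibitor, was at 7.4 ± 0.461 FPKM in NICD2 and 9.5 ± 0.284 FPKM in wild type (limma adjusted p = 0.0278). It lost its call without NICD2 replicate 1 or 3, or wild type replicate 2 or 3, which made the count that fell 1.

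Among the lists of related metalloproteinases, ADAMTS had the most genes tested (17, against 7 ADAM and 3 astacin genes) and the most called. Of the 17 ADAMTS genes 5 rose and 0 fell, where 4.93% of all genes tested rose and 3.86% fell. The median log2 fold change was 0.1, and 12 of the 17 fold changes were above 0. Adamts20 was at 4.62, 5.05 and 4.09 FPKM in NICD2, against 1.5, 1.28 and 1.36 FPKM in wild type (log2 fold change 1.23 ± 0.1, limma adjusted p = 1.91e-04). Adamts16, a gene of the developing kidney, was at 62.62, 58.38 and 54.91 FPKM in NICD2, against 24.43, 27.76 and 29.05 FPKM in wild type (log2 fold change 1.09 ± 0.08, limma adjusted p = 1.29e-04). For both genes the lowest NICD2 library was far above the highest wild type library. Adamts1, which cuts the proteoglycans aggrecan and versican, was at 66.4 ± 4.61 FPKM in NICD2 and 42 ± 6.62 FPKM in wild type (limma adjusted p = 0.00841). Adamts15 was at 8.98 ± 1.14 FPKM in NICD2 and 5.54 ± 0.507 FPKM in wild type (limma adjusted p = 0.00904). Adamts4 was at 3.68 ± 0.713 FPKM in NICD2 and 2.2 ± 0.394 FPKM in wild type (limma adjusted p = 0.0457). Adamts4 kept its call only without NICD2 replicate 1 among the 6 fits that left out 1 library, with adjusted p up to 0.123 in the other 5.

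Of 7 tested ADAM genes 1 rose, Adam9, where 4.93% of all genes tested rose. Adam9 was at 19.7 ± 0.837 FPKM in NICD2 and 15.9 ± 0.964 FPKM in wild type (limma adjusted p = 0.0359). It was not called in any of the 6 fits that left out 1 library (adjusted p 0.0694 to 0.105). Adam10 and Adam17, the main shedding enzymes of the cell surface, were not called. Adam10 averaged 37.8 FPKM in NICD2 and 36.8 FPKM in wild type (limma adjusted p = 0.796), and Adam17 averaged 15.4 FPKM in NICD2 and 14.4 FPKM in wild type (limma adjusted p = 0.447). Of 3 tested astacin enzymes 1 fell, Mep1b, where 3.86% of all genes tested fell. Mep1b, a meprin of the proximal tubule brush border, was at 15.4 ± 2.33 FPKM in NICD2 and 22.2 ± 1.74 FPKM in wild type (limma adjusted p = 0.0218). Mep1b lost its call without NICD2 replicate 1 or 2 or wild type replicate 2 or 3, where its adjusted p reached 0.0901 and 0 of the list were called.

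Substrates of the MMPs moved in both directions. Of 18 matrix substrates 3 rose and 1 fell, where 4.93% of all genes tested rose and 3.86% fell. The median log2 fold change of the 18 was 0.06. Spp1, which encodes osteopontin, was at 932.44, 596.62 and 674.24 FPKM in NICD2, against 297.79, 324.24 and 312.29 FPKM in wild type (log2 fold change 1.21 ± 0.15, limma adjusted p = 0.00166). Fibronectin (Fn1) was at 170 ± 18.7 FPKM in NICD2 and 115 ± 9.43 FPKM in wild type, and the laminin chain gene Lama1 at 46.8 ± 2.72 FPKM in NICD2 and 32.1 ± 2.68 FPKM in wild type (limma adjusted p = 0.00904 and 0.0043). Vcan, the proteoglycan versican, fell, at 22 ± 1.46 FPKM in NICD2 and 28.2 ± 1.97 FPKM in wild type (limma adjusted p = 0.0263). It lost its call without NICD2 replicate 1 or 2 or wild type replicate 2 or 3, which left 0 lower, and 2 were lower without NICD2 replicate 3. The main type IV collagen genes were not called. Col4a1 was at 500 ± 40.5 FPKM in NICD2 and 421 ± 25.5 FPKM in wild type (limma adjusted p = 0.109), and Col4a2 was at 288 ± 34.1 FPKM in NICD2 and 251 ± 12.9 FPKM in wild type (limma adjusted p = 0.243).

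Of 11 tested substrates at the cell surface or among growth factors, 4 rose and 1 fell, with a median of 0.22. Among all genes tested, 4.93% rose and 3.86% fell. Tgfa, an EGF receptor ligand, was at 8.68, 8.33 and 9.25 FPKM in NICD2, against 4.53, 4.36 and 4.74 FPKM in wild type (log2 fold change 0.81 ± 0.07, limma adjusted p = 3.60e-04). The heparan sulfate proteoglycan gene Sdc1, whose product is shed by matrilysin, was at 25.5 ± 2.48 FPKM in NICD2 and 14.7 ± 0.85 FPKM in wild type (limma adjusted p = 0.00105). Cdh1, which encodes E-cadherin, another matrilysin substrate, was at 95 ± 9.45 FPKM in NICD2 and 59.5 ± 6.78 FPKM in wild type (limma adjusted p = 0.00497). Hbegf, a further EGF receptor ligand, was at 10.4 ± 1.6 FPKM in NICD2 and 6.83 ± 0.79 FPKM in wild type (limma adjusted p = 0.0276) but was not called without NICD2 replicate 2 or 3 or wild type replicate 2 or 3. Igfbp4, which binds insulin-like growth factors, fell, at 245 ± 21.8 FPKM in NICD2 and 308 ± 11.8 FPKM in wild type (limma adjusted p = 0.0393). Among the 6 leave-one-out fits it was called in 1, the one without NICD2 replicate 3, where 2 genes of the list were lower, and 0 were lower in the other 5.

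**Figure D5:**
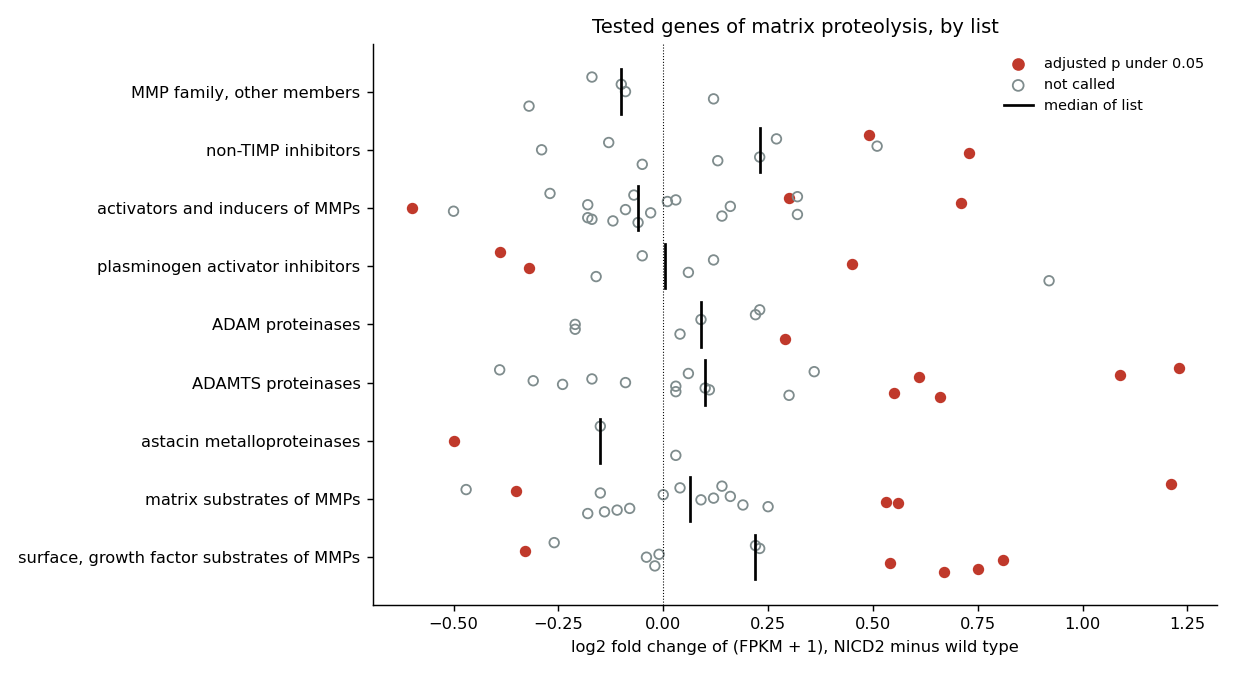
Log2 fold change of FPKM + 1, NICD2 minus wild type (horizontal axis), for each tested gene of 9 lists around matrix proteolysis (1 list per row); filled red points have an adjusted p under 0.05 and black bars are list medians. The 5 ADAMTS genes called lie between 0.55 and 1.23, and the medians of the lists lie between -0.15 and 0.23.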

How the data were processed

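RNA of kidneys at postnatal day 3 was extracted with Trizol, and TruSeq libraries were made from 1 ug of it, per the labels' protocols. The authors deposited 1 table of FPKM to 2 decimals per library, and, per the file headers, the results of their DEGseq comparison (log2 fold change, p-value, q-value) and transcript lengths (another deposited value). Bowtie 0.12.2 and mm8 are named in the submitters' processing notes, while the table's chromosome accessions are those of GRCm38. Neither the program behind the FPKM nor the use of strand is given in the sources used here. Of 23669 rows, 4010 held no FPKM and were left out. The 27 sample-pair comparison columns were left aside.

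FPKM + 1 was log2 transformed, and genes reaching 1 FPKM in 3 or more libraries were tested with limma 3.58.1 (R 4.3.3, mean-variance trend), NICD2 against wild type, with Benjamini-Hochberg adjustment over all 13765 genes, after the procedure was tested on simulated data. Groups and replicate numbers came from the labels. Depth was estimated as the library size that puts the low values of genes with 1 transcript on whole fragments, with 125 bases taken off each length. Of low values 74.7% to 76.8% then lay within 0.15 fragments of a whole number, where 30% do by chance, and fragment numbers for single genes are approximate. Upstream windows came from RefSeq (GRCm38.p6) and exon overlaps from GENCODE M21. The planned protein features were not analysed here.

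The members and gene lists were chosen with earlier results of these data known. All members are named. Of each list, called genes and up to 3 with the smallest p could be named, besides the synapsin genes and the 3 genes most like Timp4. Adam10, Adam17, Plau, Plat, Furin, Reck, Col4a1, Col4a2, Ly6g, Mmp23, Thbs1 and Pebp1 were added after their values were seen. The fits were repeated with a pseudocount of 0.1, without a filter, with a stricter filter, median-ratio or upper-quartile scaling, the replicate number as a block, robust variance, and each library left out in turn. Tables and figures used pandas 2.3.3, matplotlib 3.10.9 and scipy 1.17.1 in Python 3.11.15.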

Additional observations from a re-analysis of the deposited data

How the results depend on the processing

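Timp4 stayed called under every alternative that tested it, with a log2 fold change of 1.25 to 2.76. Apart from the fits with no filter and with a stricter filter, the alternatives kept the genes of the main filter. Timp4 passed that filter through its NICD2 values alone, so these fits are not independent support for its call. With a stricter filter (mean of at least 5 FPKM) Timp4 was not tested, and the number of members called was 0. No other tested member was called under any of the 13 alternatives. Mmp14 and Timp1, not called, changed sign without NICD2 replicate 1 (0.02) and without NICD2 replicate 2 (-0.01). In the fits that left out 1 library their log2 fold changes ran from -0.1 to 0.02 and from -0.01 to 0.1. Over all genes, limma called 679 higher and 531 lower, and 388 to 589 higher and 236 to 411 lower in the fits that left out 1 library. Over the listed genes outside the family it called 26 higher and 17 lower, 17 to 25 higher and 7 to 17 lower in those fits, and 10 lower with no filter on low values. The members called were 1 higher and 0 lower in each of them. Deviations from the group means correlated at -0.033, 0.059 and -0.045 for equal replicate numbers of the groups. For unequal numbers the correlations ran from -0.253 to 0.246. With 3 libraries per group, these values cannot show whether the samples were paired. With the replicate number as a block, 616 genes were higher and 439 lower, Timp4 kept its call (adjusted p = 0.00207), 5 macrophage markers were higher, where 1 was without the block, and Hbegf, Igfbp4, Meis2 and Serpinf2 were not called. Among the listed genes named, Adam9, Adamts4, Cd14, Cd44, Cnn1, Foxd1, Hbegf, Igfbp4, Mep1b, Serpinf2 and Tagln were not called with no filter on low values. With robust variance Cd14, Cnn1, Lcn2 and Tagln were not called, and with upper-quartile scaling Adam9 was not. Levels of Mmp7, Mmp9 and wild type Timp4 rest on few fragments.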
